A study of Mus musculus with 8 samples.

Results

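The 10 genes *Alb*, *Ttr*, *Ahsg*, *Ambp*, *Hpx*, *Hp*, *Rbp4*, *Gc*, *Fetub* and *Itih3* encode proteins that hepatocytes secrete into plasma, where most of them carry a ligand. They were chosen by name, with earlier results of these data known. Each was found in the table of 23467 genes deposited for hepatoblasts with and without the Hippo pathway kinases Lats1 and Lats2. Hepatoblasts of E14.5 livers of B6;129 mixed strain were cultured on collagen (iHB), treated with 12.5 ng/ml oncostatin M to give hepatocytes (iHP), for 5 days by the labels and a different time by the study's methods, or kept on Matrigel for 14 days to give biliary epithelial cells (iBEC). Control cells were wild type, and the mutant cells, named L1L2_Alb in the study, had the genotype Lats1-/-;Lats2f/fl;Alb-cre, in which *Lats1* is missing from all cells and the albumin promoter drives the Cre that deletes *Lats2*. RNA was sequenced in 8 libraries, which were 1 control and 1 L1L2_Alb library of iHBs, 1 control and 2 L1L2_Alb libraries of iHPs, and 1 control and 2 L1L2_Alb libraries of iBECs. The labels do not say whether libraries of a group came from separate embryos or cultures, so that p-values measure the spread between these libraries, which may be technical. In the fit of 1 genotype effect across the stages, that spread also includes how the effect differs between stages. Values are RPKM, the reads of a gene scaled to its length and to the size of its library, and can be compared between genes.

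Hepatocytes fill blood plasma with carrier proteins that keep poorly soluble or reactive cargo in solution, and these genes are among the classical products of the differentiated hepatocyte. Albumin binds fatty acids, bilirubin and many drugs, transthyretin (*Ttr*) carries thyroid hormone and docks the retinol-binding protein *Rbp4*, and *Gc* is the vitamin D-binding protein. Haptoglobin (*Hp*) and hemopexin (*Hpx*) capture free haemoglobin and haem and are acute-phase proteins, while the fetuins (*Ahsg*, *Fetub*), the bikunin precursor (*Ambp*) and an inter-alpha-trypsin inhibitor heavy chain (*Itih3*) join carriage to the control of mineral, proteases and matrix.

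Depth, recovered from the steps of short genes, was about 18437000 to 33229000 reads per library, and the lowest member value, *Itih3* in L1L2_Alb iHB, rested on about 420 reads, so that depth limited no value of the 10 genes. Neither targeted gene was called lower in the libraries labelled L1L2_Alb, although *Lats1* in iHP replicate 2 was under the control of its stage. *Lats1* was at 10.6, 11.2 and 5.38 RPKM in the control iHB, iHP and iBEC libraries while those labelled L1L2_Alb held 13.9, 22.7, 7.12, 9.69 and 9.91 RPKM, and *Lats2* was at 9.23, 10.1 and 6.90 RPKM against 19.7, 17.7, 27.6, 10.9 and 12.4 RPKM. All 5 of the latter were above all 3 controls, and limma called *Lats2* higher (log2 fold change 0.90, adjusted p = 0.0312), although not without iBECs (1.04, adjusted p = 0.0623). Gene totals do not resolve the deleted exons, and the genotype is therefore given as labelled throughout. The control iBEC library stood apart from its label in part, since of 6 biliary markers *Krt7* (62.3 RPKM), *Krt19* (83.7 RPKM), *Epcam* (2.96 RPKM) and *Cldn7* (1.89 RPKM) were lower there than in the other control libraries, whereas *Spp1* (23271 RPKM) and *Sox9* (13.3 RPKM) were higher. The genotype effect is for this reason also given without iBECs for the carriers and for the other lists. In bulk RNA, fewer cells of a type and less RNA per cell cannot be told apart.

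The promoters shown here were chosen because they belong to members of different roles, *Alb*, *Ahsg* and *Hpx*, and because they hold recognition words of the hepatic factors whose own levels are given further on. The letters searched on both strands were CAAAGTCCA (HNF4), TTGCNNAA (C/EBP), TGTTTAC and TGTTTGC (FOXA) and ACATTCC (TEAD, the partner of the YAP and TAZ proteins that Lats1 and Lats2 restrain). Sequences are from RefSeq on GRCm38.p6, each from 250 bases before the transcription start to 50 after it, and capitals mark the matched words.
*Alb*, chr5:90460620-90460919, plus strand: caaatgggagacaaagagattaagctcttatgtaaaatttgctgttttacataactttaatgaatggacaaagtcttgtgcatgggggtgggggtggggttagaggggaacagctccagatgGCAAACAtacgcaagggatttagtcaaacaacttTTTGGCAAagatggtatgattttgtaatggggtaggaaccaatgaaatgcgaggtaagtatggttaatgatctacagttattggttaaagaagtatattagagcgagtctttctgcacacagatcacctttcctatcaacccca
*Ahsg*, chr16:22891765-22892064, plus strand: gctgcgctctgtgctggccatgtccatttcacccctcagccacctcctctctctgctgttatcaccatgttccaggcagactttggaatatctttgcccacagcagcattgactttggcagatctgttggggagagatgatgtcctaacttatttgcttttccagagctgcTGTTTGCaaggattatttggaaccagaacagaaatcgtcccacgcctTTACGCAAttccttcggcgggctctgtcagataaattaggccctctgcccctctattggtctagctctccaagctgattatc
*Hpx*, chr7:105600067-105600366, minus strand: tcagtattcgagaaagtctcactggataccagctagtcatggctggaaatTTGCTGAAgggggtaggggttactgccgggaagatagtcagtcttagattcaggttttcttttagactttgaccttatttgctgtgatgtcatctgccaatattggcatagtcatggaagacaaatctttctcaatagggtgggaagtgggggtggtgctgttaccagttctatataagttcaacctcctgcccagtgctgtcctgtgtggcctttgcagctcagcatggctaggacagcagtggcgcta

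In the *Alb* promoter a FOXA word began at -128 and a C/EBP word at -94 from the start. The *Ahsg* promoter held a FOXA word at -79 and a C/EBP word at -32, and the *Hpx* promoter 1 C/EBP word at -200. Promoters were found for 8 of the 10 genes, 10 promoters in all, with none for *Ttr* and *Hp*. At least 1 of the HNF4, C/EBP or FOXA words was found in 8 of the 10 promoters, against 18.1% of 32851 promoters of the same length, and the exceptions were those of *Itih3* and *Gc*. By word, TTGCNNAA was in those of *Alb*, *Hpx*, *Ahsg* and *Rbp4* (10.8% of all promoters), TGTTTGC in those of *Ambp*, *Alb*, *Ahsg* and *Fetub* (5.07%) and TGTTTAC in those of *Fetub* and *Rbp4* (3.65%). CAAAGTCCA (0.475%) and ACATTCC (3.85%) were in 0 of the 10. These matches describe letters in a window and not bound sites.

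Across the 3 stages, 9 of the 10 carrier genes fell in the L1L2_Alb libraries. The log2 fold changes of these 9, fitted with limma on log2(RPKM + 1) with stage as a block and adjusted by the Benjamini-Hochberg method over 13421 genes, lay between -3.39 for *Itih3* and -1.71 for *Alb*. *Rbp4* was the exception, at -0.83 (standard error (SE) 0.343, limma adjusted p = 0.169). Of all genes tested, 3.37% were called lower by the same rule, and the median fold change was -2.38 for the 10 genes and 0.06 for all genes on the log2 scale. The calls over all genes were 452 lower and 832 higher, against 607 and 586 with upper-quartile scaling and 607 and 687 with quantile normalization, where 9 and 8 of the carriers were called lower. Counted by library, 49 of 50 comparisons of an L1L2_Alb library with the control of its stage were lower, 46 of them at least 2-fold, and *Rbp4* in L1L2_Alb iBEC replicate 1 was the one that was not. These comparisons share 3 control libraries and are not independent, and the same count over all genes was not made. In no member but *Ttr*, *Gc* and *Fetub* did all 3 control libraries lie above all 5 L1L2_Alb libraries. The share of all genes separated in this way was not counted. Levels also moved with stage, as the plot of the 10 genes by library shows. Without iBECs 10 of 10 were called lower, against 6.8% of all genes, from -4.14 for *Itih3* to -1.26 for *Rbp4* (adjusted p = 0.034 from limma). In that fit 6 of 8 fibroblast markers were also called lower (*Col1a1*, *Col1a2*, *Col3a1*, *Pdgfrb*, *Lum* and *Dcn*, log2 fold changes of -1.37 to -3.31), and the part of fibroblast content in the carrier levels was not tested. Without iHPs *Ttr* alone was called, at limma's adjusted p between 0.0503 and 0.0919 for the 7 others that had been called besides *Alb*.

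**Figure D1:**
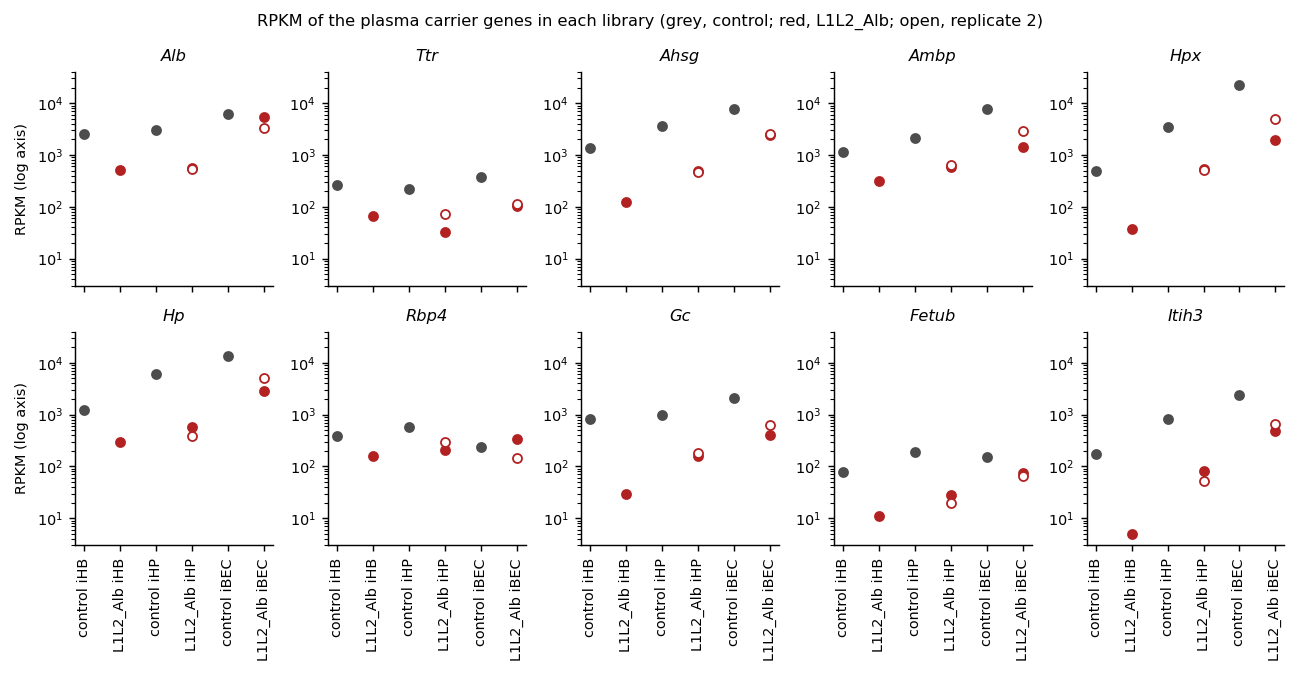
RPKM of each of the 10 plasma carrier genes on a log axis in the 6 groups, 1 point per library, with control libraries in grey, L1L2_Alb libraries in red and their replicate 2 as open points. Within a stage the red points lie under the grey one in every panel except that of *Rbp4* in iBECs, and most panels climb from iHB to iBEC in both genotypes.

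*Alb*, the main protein of plasma, was at 2485, 3088 and 6162 RPKM in control iHB, iHP and iBEC. The L1L2_Alb libraries held 524 RPKM in iHB, 568 and 526 RPKM in iHP, and 5499 and 3357 RPKM in iBEC. *Alb* was thus about as low in mutant iHPs as in mutant iHBs, whereas both mutant iBEC libraries were above the control hepatoblasts. Its difference from the control of the stage was -2.24 on the log2 scale in iHBs, -2.50 (SD 0.0781, n = 2) in iHPs and -0.52 (SD 0.503, n = 2) in iBECs. The effect common to the stages was -1.71 (SE 0.394, limma adjusted p = 0.0337, lower in 5 of 5 libraries). It was called in 6 of 13 alternative settings. The call was lost without L1L2_Alb iHP replicate 1 (log2 fold change -1.65, adjusted p = 0.0656 from limma), iHP replicate 2 (-1.61, 0.0645) or iBEC replicate 2 (-1.72, 0.07), with no filter (-1.71, 0.104), and without the iHB stage (-1.51, 0.164) or the iHP stage (-1.26, 0.274). Without iBECs the effect was -2.39 (adjusted p = 0.00663 from limma). Under quantile normalization it was -1.51 (adjusted p = 0.107 from limma), and *Alb* in L1L2_Alb iBEC replicate 1 turned from -0.16 to 0.65 on the log2 scale against its control.

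*Gc*, the vitamin D-binding protein, lies near *Alb* on chromosome 5. It was at 823, 972 and 2074 RPKM in control iHB, iHP and iBEC, and at 29.4 RPKM in L1L2_Alb iHB, 158 and 185 RPKM in iHP and 405 and 626 RPKM in iBEC. The lowest control stood above the highest mutant library. The decrease was 28.0-fold in iHBs, 6.16- and 5.27-fold in the iHP libraries and 5.12- and 3.32-fold in the iBEC libraries. The common effect on the log2 scale was -2.95 (SE 0.44, limma adjusted p = 0.00764, lower in 5 of 5 libraries). Control *Gc* differed by 1.18-fold between iHB and iHP, whereas the mutants held 29.4 RPKM in iHB and 158 and 185 RPKM in iHP.

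The carriers of retinol and thyroid hormone, which travel as 1 complex, differed from each other. *Ttr* was at 259, 217 and 371 RPKM in control iHB, iHP and iBEC, and at 65.9 RPKM in L1L2_Alb iHB, 33.0 and 71.3 RPKM in iHP and 106 and 112 RPKM in iBEC. All 5 mutant libraries were under all controls, by 3.04- to 6.58-fold against their own stage. *Ttr* fell by 1.95 on the log2 scale (SE 0.252, limma adjusted p = 0.00445), and it was called in 13 of 13 alternative settings. *Rbp4* was at 386, 585 and 237 RPKM in the controls, and at 161 RPKM in L1L2_Alb iHB, 205 and 290 RPKM in iHP and 340 and 148 RPKM in iBEC. The mutant iBEC pair lay on either side of the control and differed by 2.29-fold from each other, whereas iHB and both iHP libraries were 2.02- to 2.85-fold under their controls. Without L1L2_Alb iBEC replicate 1, *Rbp4* was called lower at a log2 fold change of -1.08 (limma adjusted p = 0.0296). The ratio of *Rbp4* to *Ttr* RPKM was 1.49, 2.70 and 0.639 in control iHB, iHP and iBEC and 2.44, 6.21 and 4.07, and 3.21 and 1.32 in the mutant libraries of these stages. It was higher in each mutant library than in the control of its stage, which describes the unequal change of the 2 genes and was not tested.

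Both scavengers of haem had control levels that differed widely between stages and were lower in every mutant library. *Hpx*, which binds free haem, was at 499, 3390 and 22015 RPKM in control iHB, iHP and iBEC, a 44.1-fold span. It was at 37.9 RPKM in L1L2_Alb iHB, 535 and 508 RPKM in iHP and 1974 and 5041 RPKM in iBEC. The 2 mutant iBEC libraries differed by 2.55-fold, and both lay under the control of their stage, by 11.2- and 4.37-fold. *Hpx* fell by 3.01 on the log2 scale (SE 0.34, limma adjusted p = 0.00283), the lowest adjusted p of the 10 genes. *Hp*, which binds haemoglobin, was at 1240, 6160 and 13682 RPKM in the controls, and at 301 RPKM in L1L2_Alb iHB, 576 and 392 RPKM in iHP and 2824 and 5094 RPKM in iBEC. Its mutant iHP libraries were 10.7- and 15.7-fold under the control, against 4.11-fold in iHB and 4.84- and 2.69-fold in iBEC. Both mutant iHP libraries were under control iHB. Oncostatin M, a cytokine of the family that drives acute-phase genes, had been given to both genotypes. *Hp* fell by 2.57 on the log2 scale (SE 0.4, limma adjusted p = 0.00882).

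The 2 fetuins, inhibitors with cystatin domains whose genes are neighbours on chromosome 16, both fell, from different levels. *Ahsg* (fetuin-A, which keeps calcium phosphate in solution) was at 1361, 3560 and 7762 RPKM in control iHB, iHP and iBEC, and at 122 RPKM in L1L2_Alb iHB, 494 and 467 RPKM in iHP and 2414 and 2581 RPKM in iBEC. *Fetub* (fetuin-B, an inhibitor of ovastacin) was at 77.0, 187 and 150 RPKM in the controls, and at 11.1 RPKM in L1L2_Alb iHB, 28.1 and 19.98 RPKM in iHP and 74.2 and 65.4 RPKM in iBEC. The mutant pairs were close for both genes, within 1.41-fold. *Ahsg* fell by 2.59 on the log2 scale (SE 0.324, limma adjusted p = 0.00415) and *Fetub* by 2.20 (SE 0.337, limma adjusted p = 0.00859). The decrease of *Ahsg* was 11.2-fold in iHBs, 7.21- and 7.62-fold in iHPs and 3.22- and 3.01-fold in iBECs. Between *Ahsg* and *Fetub* the ratio of RPKM was 17.7, 19.0 and 51.8 in the controls. In the mutant libraries it was 11.0, 17.5, 23.4, 32.6 and 39.4. It was highest in iBECs in both genotypes. Against the controls it was lower in mutant iHB and in both mutant iBEC libraries, and the mutant iHP pair lay on either side.

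*Ambp*, the shared precursor of alpha-1-microglobulin and of bikunin, and *Itih3*, a heavy chain that is joined to bikunin, both fell, *Itih3* with the largest fold change of the set. *Ambp* was at 1157, 2132 and 7581 RPKM in control iHB, iHP and iBEC, and at 317 RPKM in L1L2_Alb iHB, 599 and 634 RPKM in iHP and 1447 and 2839 RPKM in iBEC. *Itih3* was at 172, 808 and 2372 RPKM in the controls, and at 4.95 RPKM in L1L2_Alb iHB, 82.8 and 52.4 RPKM in iHP and 482 and 646 RPKM in iBEC. *Itih3* was 34.8-fold lower in mutant than in control iHBs and *Ambp* 3.65-fold. In iBECs the folds were near each other, 5.24 and 2.67 for *Ambp* and 4.92 and 3.67 for *Itih3*. *Ambp* fell by 1.85 on the log2 scale (SE 0.259, limma adjusted p = 0.00593) and *Itih3* by 3.39 (SE 0.437, limma adjusted p = 0.00445). The ratio of *Ambp* to *Itih3* RPKM was 6.71 in control iHB and 64.2 in L1L2_Alb iHB, and 3.20 in control iBEC against 3.00 and 4.40 in L1L2_Alb iBEC.

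Taken stage by stage, without a test because each stage had 1 control library, the whole set was at least 2-fold lower in iHBs (10 of 10, against 8.99% of all genes) and in both iHP libraries (10 of 10, against 8.26%). In iBECs it was 8 of 10, against 1.62% of all genes, and the other two were *Alb* and *Rbp4*. The median difference of the 10 genes was -2.47 on the log2 scale in iHBs, -2.60 in iHPs and -1.81 in iBECs, where the medians of all genes were -0.09, -0.01 and 0.25. Of the 10 genes, 9 had a larger decrease in iHBs than in iBECs and 8 a larger one in iHPs than in iBECs. Whether the effect differed between stages was asked with limma's moderated F test, which called 0 of 13421 genes, the members included. Its smallest adjusted p was 0.122 over all genes, and 733 genes had an unadjusted p under 0.05, among them *Gc*, *Itih3* and *Fetub*. With 2 residual degrees of freedom this test called 1.5% of simulated differences of 4 on the log2 scale and 66.7% of differences of 6. They were added to the L1L2_Alb iBEC libraries alone, on levels without stage differences and raised by 4 on the log2 scale. Smaller ones, of 2, were called in 0% there. The absence of calls therefore does not show that the effect was equal between stages.

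**Figure D2:**
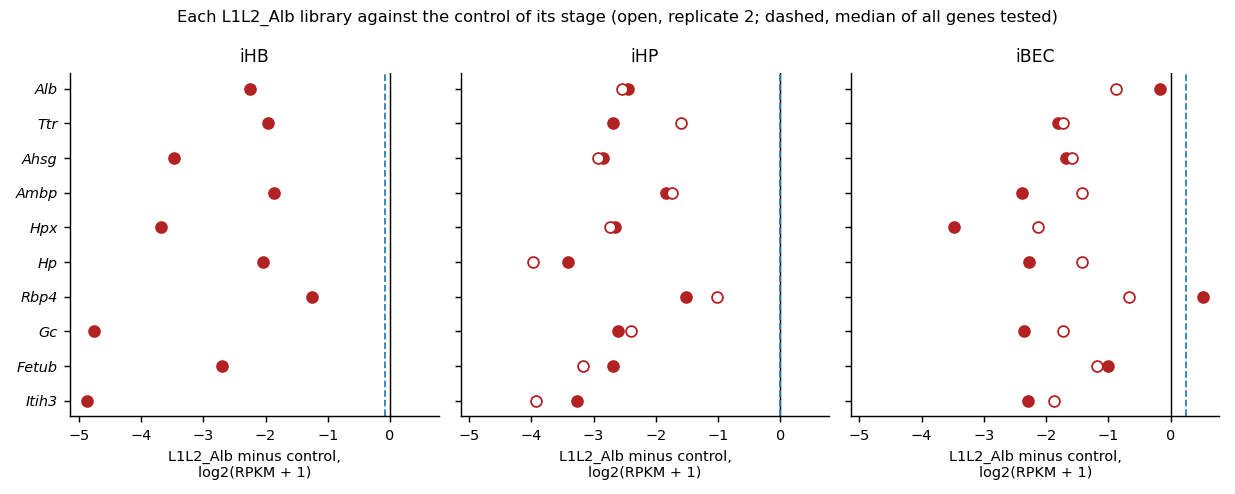
Difference of each L1L2_Alb library from the control of its stage in log2(RPKM + 1) for the 10 genes, with replicate 2 as open points and the median of all genes tested as a dashed line. The points lie from -4.87 (*Itih3*, iHB) to 0.52 (*Rbp4*, iBEC replicate 1), and *Alb* lies within 1 of its control in iBECs and in no other stage.

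Among the mutant cells alone, 6 of the 10 carriers were called higher in iBECs than in iHPs. Of all genes 3.16% were called higher by the same rule in limma. Without a test, both L1L2_Alb iBEC libraries lay above both L1L2_Alb iHP libraries for 9 of 10 genes, with *Rbp4* as the exception. The share of all genes in this order was not counted. The 6 carriers were *Itih3* (log2 difference 3.06, adjusted p = 0.0111 from limma), *Hp* (2.99, adjusted p = 0.0273), *Alb* (2.97, adjusted p = 0.0226), *Hpx* (2.60, adjusted p = 0.0464), *Ahsg* (2.37, adjusted p = 0.0273) and *Fetub* (1.51, adjusted p = 0.0441). *Ambp* (1.72), *Gc* (1.55) and *Ttr* (1.15) did not pass, at limma's adjusted p between 0.0694 and 0.183, and *Rbp4* was at -0.12. Markers of other cells moved in the same contrast. limma called the fibroblast markers *Lum* (4.81, adjusted p = 0.0261) and *Dcn* (4.70, adjusted p = 0.0174) and the macrophage marker *Emr1* (1.99, adjusted p = 0.0166) higher in L1L2_Alb iBECs, and the median difference was 1.55 for 8 fibroblast and 1.27 for 6 macrophage markers, against 2.05 for the carriers and -0.01 for all genes. Summed over the 8 fibroblast markers the level was 737 and 1194 RPKM in L1L2_Alb iHPs and 3711 and 1664 RPKM in L1L2_Alb iBECs, and the part of cell makeup in the contrast was not tested. The carrier calls rested on both pairs. With L1L2_Alb iHP replicate 1 or 2 or iBEC replicate 1 or 2 left out, limma called 0 of the 10, of which 8, 9, 8 and 6 had an unadjusted p under 0.05.

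The control cells show how these genes ran over the cultures when Lats1 and Lats2 were present. Control iHP was above control iHB for 9 of 10 genes, at least 2-fold for 5 (*Ahsg*, *Hpx*, *Hp*, *Fetub* and *Itih3*), against 1.93% of all genes. *Alb* differed by 1.24-fold and *Gc* by 1.18-fold in this step, and *Ttr* was 0.839 of its iHB level. Under quantile normalization 8 of 10 were above control iHB. Control iBEC was above control iHP for 8 of 10, at least 2-fold for 6 (*Ahsg*, *Ambp*, *Hpx*, *Hp*, *Gc* and *Itih3*), against 3.6% of all genes. *Rbp4* and *Fetub* were highest in control iHP and the other 8 in control iBEC, the library labelled biliary. In the mutants L1L2_Alb iHB was the lowest of all 8 libraries for 8 of the 10, and both L1L2_Alb iHP libraries were above it for 9 of the 10. These steps rest on single control libraries, and the 2 control comparisons share the iHP library.

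As a share of all RPKM in a library, the 10 genes made up 1.26% in control iHB, 3.10% in control iHP and 8.59% in control iBEC. In the mutants they made up 0.226% in iHB, 0.524% and 0.41% in iHP and 2.25% and 2.70% in iBEC. The order of the stages was the same in both genotypes, with the mutant share lower in each. *Hpx* had the rank 2 of all genes in control iBEC, *Hp* 5, *Ahsg* 7, *Ambp* 8 and *Alb* 13. Among the 20 highest genes there were 1, 3 and 5 carriers in control iHB, iHP and iBEC, 0 in the mutant iHB and iHP libraries, and 2 and 3 in the mutant iBECs. *Alb* had the rank 15 in control iHB and 231 in L1L2_Alb iHB, and 6 in L1L2_Alb iBEC replicate 1, above its rank in the control of that stage.

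**Figure D3:**
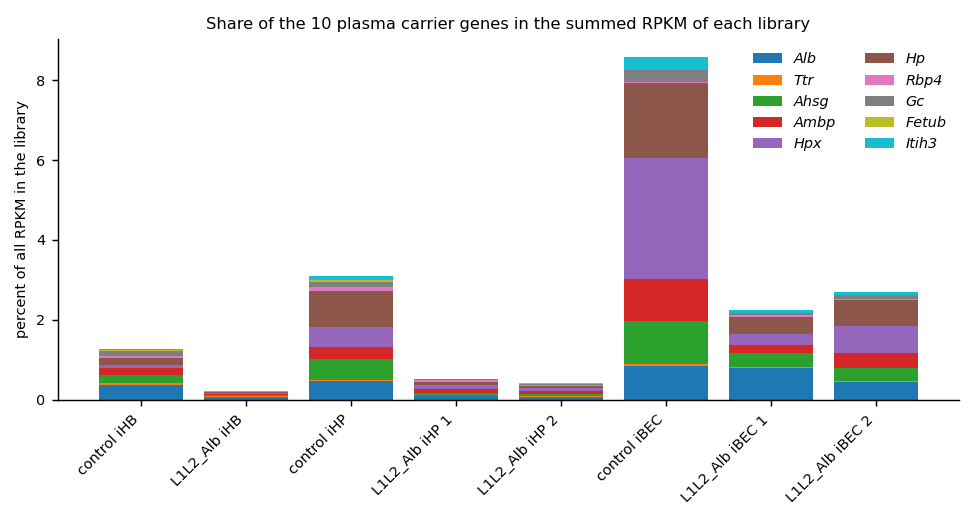
Percent of the summed RPKM of each library that the 10 genes made up, stacked by gene. The bars reach 8.59% in control iBEC, where *Hpx* and *Hp* take the largest parts, and stay under 0.6% in the mutant iHB and iHP libraries.

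*Rbp4* was the gene least like the others of the set. Over the 8 libraries, which share stage and genotype, Pearson's r on log2 values was 0.61 to 0.99 (median 0.91) among the 36 pairs without *Rbp4*, and 0.17 to 0.58 (median 0.35) in the 9 pairs with it. The closest values of both kinds were 0.61 for *Ttr* with *Hpx* and 0.58 for *Rbp4* with *Fetub*. Of 605 other genes of mean RPKM 10 or above and an SD of at least 1 on the log2 scale, those most like the mean course of the set were *Serping1* (r = 0.994), *Vtn* (0.993), *Serpinc1* (0.991), *Apof* (0.990) and *Gm10069* (0.988). Genes close to *Alb* alone included *Apoc4* (0.983) and *Gpd1* (0.978). *Apoc4*, for example, was at 38.6, 63.4 and 103 RPKM in the controls, at 10.6 RPKM in mutant iHB, at 7.33 and 9.78 RPKM in mutant iHPs and at 66.3 and 62.6 RPKM in mutant iBECs. It was above control iHB in both mutant iBEC libraries, as were 6 of the 10 carriers. The mutant iHP pair was within 1.5-fold for 8 of the 10 carriers, and the mutant iBEC pair for 4.

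Relatives by protein family mostly moved with the set. Of 14 tested, 9 fell and 0 rose, with a median of -1.99 on the log2 scale, and without iBECs 8 of 13 fell, the call of *Kng2* being lost. They were the acute-phase lipocalins *Orm1* (-2.79), *Orm2* (-3.04) and *Lcn2* (-1.87), the histidine-rich glycoprotein *Hrg* (-2.32), which follows *Fetub* on chromosome 16, the kininogens *Kng1* (-2.10) and *Kng2* (-0.90), and the heavy chains *Itih1* (-2.75), *Itih2* (-1.06) and *Itih4* (-3.01). *Itih1* and *Itih4* flank *Itih3* on chromosome 14. *Afm* (-1.12, limma adjusted p = 0.0569), *Apom* (-0.75, 0.177) and *Orm3* (-2.85, 0.204) did not pass, and *Ptgds* was too low to be tested. The *Orm* genes and the kininogens have near-identical copies, between which reads may have been split. *Afp*, the fetal counterpart of albumin and the next gene to *Alb*, did not move with it. It was at 3687, 4219 and 779 RPKM in control iHB, iHP and iBEC, at 3959 RPKM in L1L2_Alb iHB, 2673 and 2603 RPKM in iHP and 1313 and 1391 RPKM in iBEC, a log2 fold change of 0.07 (SE 0.299, limma adjusted p = 0.914). The ratio of *Afp* to *Alb* RPKM was accordingly 7.56 in L1L2_Alb iHB against 1.48 in the control, 4.70 and 4.95 against 1.37 in iHPs, and 0.239 and 0.414 against 0.126 in iBECs. *Itih5*, a heavy chain made outside hepatocytes as well, was at 0.28 (adjusted p = 0.362 from limma).

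Of other plasma carriers 6 of 8 tested fell, with a median of -2.17 on the log2 scale, and the same 6 without iBECs. *Vtn* (vitronectin) had -3.57, *Serpina7* (thyroxine-binding globulin) -3.06, *Apoh* -2.88 and *Cp* (ceruloplasmin) -2.53, and transferrin (*Trf*) and *Lrg1* also passed. Genes for uptake of the carriers did not follow one direction, with 1 of 9 tested lower and 2 higher, or 4 lower and the same 2 higher without iBECs. *Asgr1*, a hepatocyte receptor for asialoglycoproteins, fell by 2.09 (adjusted p = 0.0105 from limma), whereas *Lrp2* (megalin, 2.33, adjusted p = 0.00494) and *Cubn* (cubilin, 2.09, adjusted p = 0.00822), which together retrieve albumin and vitamin-binding proteins in absorptive epithelia, rose. *Lrp2* was at 3.01, 1.54 and 0.0739 RPKM in the controls and at 37.4 RPKM in L1L2_Alb iHB, 8.24 and 10.3 RPKM in iHP and 2.12 and 4.57 RPKM in iBEC. Of 16 genes of the general secretory pathway 0 were called by limma with or without iBECs, 1 had an unadjusted p under 0.05, and the median was 0.17 on the log2 scale.

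Of 10 hepatic transcription factors 4 fell, namely *Nr5a2* (-1.51), *Prox1* (-1.42), *Hnf4a* (-1.33) and *Foxa3* (-1.30), and *Foxa2* rose (1.18, adjusted p = 0.0351 from limma). *Cebpa* (-0.54, adjusted p = 0.166) and *Cebpb* (-0.24, adjusted p = 0.493) did not pass in limma. *Hnf4a* was at 48.4, 64.4 and 99.5 RPKM in the controls and at 20.2, 23.7, 22.4, 35.4 and 45.6 RPKM in the mutant libraries. Without iBECs 5 were called lower, these 4 and *Onecut1*, and *Foxa2* was again higher. No link between the levels of a factor and a word in a promoter was tested.

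**Figure D4:**
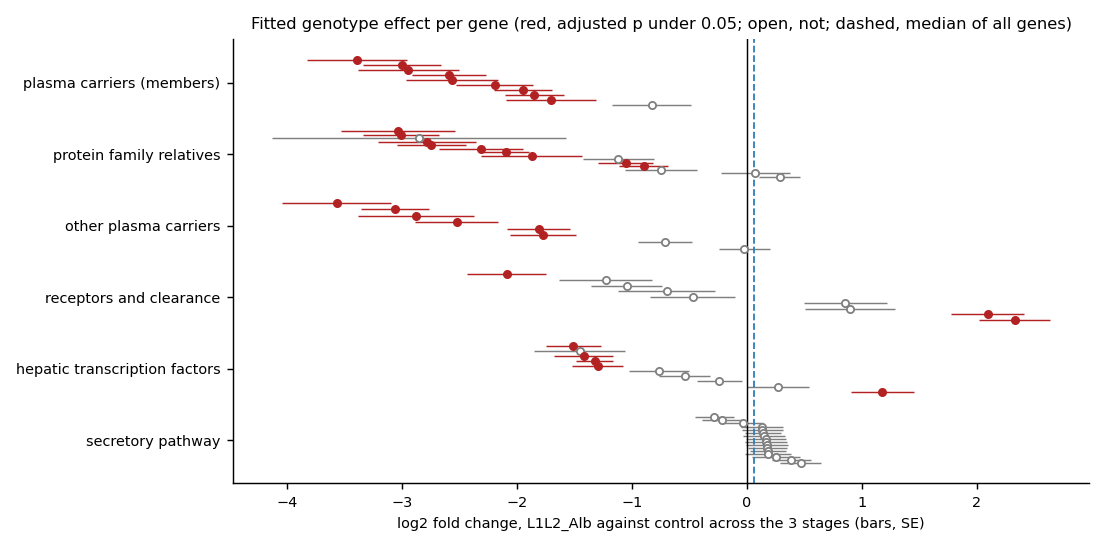
Genotype effect across the 3 stages in log2(RPKM + 1) for each tested gene of 6 lists, with bars for the standard error, red for genes past an adjusted p of 0.05 in limma and open grey for the others. The carriers, their relatives and other plasma carriers lie mostly left of 0, and the secretory pathway genes lie around the median of all genes, the dashed line at 0.06.

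Markers of other cells were examined beside these results. Of 6 mesothelial markers *Msln* (3.61, adjusted p = 0.00093 from limma) and *Upk1b* (3.01, adjusted p = 0.0119) rose. *Wt1* (0.93, adjusted p = 0.0594 from limma) and *Upk3b* (0.53, adjusted p = 0.528) did not pass. *Upk3b* was under its control in both L1L2_Alb iHP libraries and above it in the other mutant libraries. *Lrrn4* and *Krt14* were under 1 RPKM in every library. The summed level was 111 to 272 RPKM in the controls and 1064 to 3613 RPKM in the mutants. Most of it was *Msln*, at 103 to 261 RPKM and 1032 to 3536 RPKM. Of biliary markers *Krt7* (2.17) and *Krt19* (1.31) rose and *Spp1* (-1.50) fell. Without iBECs *Msln*, *Upk1b* and *Krt7* were again called higher, *Krt19* and *Spp1* were not called, and *Cldn7*, *Ptprc*, *Pecam1*, *Hba-a1* and *Hbb-b1* were called lower. Fibroblast, macrophage and endothelial markers had 0 calls in limma for the genotype effect over 3 stages, where 6 of 8, 1 of 6 and 2 of 3 tested had an unadjusted p under 0.05, with summed levels of 2648 to 4650 RPKM in the controls and 737 to 3711 RPKM in the mutants for the 8 fibroblast markers and 1137 to 2045 RPKM against 661 to 2686 RPKM for the 6 macrophage markers. The endothelial genes *Cdh5*, *Tek* and *Stab2* were under 1 RPKM in every library, and the sum of the 6 endothelial markers was 7.99 to 23.7 RPKM in the controls and 2.90 to 21.6 RPKM in the mutants. Of the erythroid markers *Hbb-b1* fell (-2.09), *Hbb-bh1* was under 1 RPKM throughout, and the sum of 6 was 2.85 to 109 RPKM against 1.99 to 22.5 RPKM. The part of cell makeup in the lower carrier levels was not tested.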

How the data were processed

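RNA of 8 libraries (TruSeq v2) was analysed from the 1 table that the authors deposited, with 1 value per gene symbol and library. The unit was inferred to be RPKM as deposited (or the same per fragment), because short RNA genes changed in whole steps. Such steps gave each library's depth, with 90.1 to 94.3% of short genes within 0.01 of a whole read. The submitters' processing notes name Bowtie 0.12.2 and mm8, and the counting method and annotation are not given in the sources used here. Of 23471 entries 4 with repeated symbols were left out.

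Values were changed to log2(RPKM + 1), so that folds of low genes are understated, and the 13421 genes of mean RPKM 1 or above entered limma 3.58.1 (R 4.3.3, trended eBayes). Stage was a block or, for L1L2_Alb iBEC against iHP and for stage differences, 6 group means were fitted. P-values were two-sided and adjusted by the Benjamini-Hochberg method over all genes tested, with a threshold of 0.05. Fold values and ratios are of RPKM. Each library was set against the 1 control of its stage without a test. No count model was run. Members, gene lists, comparisons and alternatives were chosen with earlier results of these data known. Named from other lists were genes past the threshold, as the up to 4 with the largest effect, defining markers, and any protein family relative. *Trf*, *Lrg1*, *Foxa2*, *Cebpa*, *Cebpb*, *Hmox1*, *Cd163* and *Stra6* were named after their values were seen. Some items of the lists are not reported here. The fit was tested on simulated data of 13421 genes, where log2 changes of 2 were called in 83%, those of 1 in 42%, and 7 unchanged genes were called. In the L1L2_Alb contrast 37.3% of changes of 2 and 86.6% of changes of 4 were called. The simulated levels there had no stage differences and were raised by 4 on the log2 scale. Alternatives were another pseudocount (0.1), 2 scalings, 2 filters, no trend, and leaving out single libraries or stages. The other lists were fitted without iBECs as an alternative chosen after seeing the data. Promoters were read from RefSeq. Python 3.11.15, numpy 2.4.6, pandas 2.3.3 and matplotlib 3.10.9 were used.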

Additional observations from a re-analysis of the deposited data

How the results depend on the processing

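With 1 control library per stage, 2 residual degrees of freedom in the test between mutant groups and no counts, calls near the threshold moved easily. For the genotype effect, the direction of all 10 genes was kept in 13 alternative settings, and of 130 values 113 stayed on their side of the threshold, 15 lost a call and 2 gained one (*Rbp4* both times). Of the 10 carriers 1 was called without iHPs, 7 without iHBs, 8 to 10 with a single library left out, and 8 without a filter. Over all genes 1284 were called, against 686 with no filter, 326 without iHBs, 132 without iHPs and 792 to 1214 with a single library left out. Upper-quartile scaling moved the median of all genes in iBECs from 0.25 to 0.02 on the log2 scale and left 49 of 50 comparisons lower, and quantile normalization left 48.

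For L1L2_Alb iBEC against L1L2_Alb iHP, the 6 carriers called became 0 with no filter (8 with an unadjusted p under 0.05 in limma) and 0 to 0 with a single library left out, 4 with a pseudocount of 0.1, 5 with upper-quartile scaling and 7 with quantile normalization. The 492 genes called became 0 with no filter and 0 to 91 with a single library left out. *Rbp4* changed sign, to 0.0105 under quantile normalization and within -0.72 to 0.48 with a single library left out, 0.13 without L1L2_Alb iHP replicate 2 and 0.48 without iBEC replicate 2. Replicates of the 2 groups share a number, and the labels do not say whether those of the same number are linked. Their deviations had a correlation of -0.02 over 13421 genes, which cannot settle it. With the replicate number as a block 904 genes and 8 carriers were called. The test between stages called 0 genes in every setting run, with 466 to 1616 genes at an unadjusted p under 0.05 in limma. The cause of these changes was not tested.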

Other observations

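Not every product of the hepatocyte followed the carriers. Of 8 hepatocyte or hepatoblast markers, which include *Alb* and *Ttr*, 4 fell, the other two being *Serpina1a*, which has near-identical copies (log2 fold change -2.42, adjusted p = 0.0391 from limma) and *Hnf4a* (-1.33, adjusted p = 0.00373). *Apoa1*, the main protein of high-density lipoprotein, was at 2451, 4249 and 4404 RPKM in control iHB, iHP and iBEC, and at 8670 RPKM in L1L2_Alb iHB, 8351 and 6225 RPKM in iHP and 4170 and 2889 RPKM in iBEC. It was above the control in iHB and in both iHP libraries and under it in both iBEC libraries, at a common log2 fold change of 0.65 (SE 0.397, limma adjusted p = 0.35). *Apob*, the backbone of very-low-density lipoprotein, was at -0.33 (adjusted p = 0.74 from limma), with its L1L2_Alb iHP libraries at 160 and 27.2 RPKM around a control of 98.5 RPKM. *Cps1*, the first enzyme of the urea cycle, was at 85.0, 340 and 123 RPKM in the controls, at 2.24 RPKM in L1L2_Alb iHB, 21.0 and 6.24 RPKM in iHP and 233 and 80.4 RPKM in iBEC, a log2 fold change of -2.96 that did not pass (adjusted p = 0.0827 from limma). Without iBECs it was called lower (-4.75, adjusted p = 0.00271 from limma), as 5 of the 8 markers then were. The summed RPKM of the 8 markers was 12169 to 17391 in the controls and 10353 to 13824 in the mutants. *Apoa1* and *Afp*, which were not called, weigh heavily in it. In L1L2_Alb iHB they held 8670 and 3959 of 13400 RPKM, against 2451 and 3687 of 12169 RPKM in control iHB.

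Among genes that handle the cargo of the carriers, *Hmox1*, which degrades haem, was at 206, 154 and 99.3 RPKM in control iHB, iHP and iBEC and at 540, 396, 109, 191 and 209 RPKM in the mutant libraries (0.90, adjusted p = 0.193 from limma). *Cd163*, the macrophage receptor for haptoglobin and haemoglobin, was at 28.1, 42.7 and 70.8 RPKM in the controls and at 70.9, 28.8, 77.7, 135 and 207 RPKM in the mutants. *Stra6*, the receptor for *Rbp4*, stayed under 2 RPKM in every library.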
